A study of Macaca mulatta with 24 samples.

Results

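Endometrium of cycles that ended in conception was set against endometrium of cycles without mating, both at day 2 past ovulation. The comparison used 8 of the 24 arrays in a rhesus monkey (Macaca mulatta) series, 4 from conception cycles and 4 from non-mated cycles, and the arrays were chosen by these labels alone. The monkeys had proven fertility, the non-mated cycles were normo-ovulatory, and RNA was taken from whole endometrium with Trizol. Cy3-labelled cRNA from 200 ng of total RNA was read on Agilent 1-colour arrays. The conception group differed from the other group both in mating and in the presence of an embryo, and these cannot be told apart. Source names date the conception arrays from fertilization and descriptions date them from ovulation, which is used here. No label says whether replicate arrays were from different monkeys, so the p-values rest on the spread between samples, and part of that spread may be technical.

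The endometrium lines the uterus and passes from oestrogen-driven growth to progesterone-driven secretion after ovulation. Glands then begin to secrete, the stroma prepares for decidualization, and immune cells, among them uterine natural killer cells, are recruited. Early cleavage of the embryo takes place in the oviduct, before the embryo reaches the uterine cavity. The comparison asks whether the lining already differs at that time between conception and non-mated cycles.

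Each level below is the log2 processed signal of a gene's probe minus the 75th percentile of the same array, so 0 marks that percentile. Levels describe a probe across arrays and are not compared between genes. On non-mated day 2 replicate 3, called the weak array here, 4.33% of probes were flagged as well above background, against 57.5% to 71.4% on the other 7 arrays. The weak array was scanned over the extended range, and its 75th percentile signal was 23.1 units. Other day 2 arrays of that range had 1421 to 5012 units, and those of a single scan range 183.5 to 257 units. A single value, -0.28, was given to 7106 features (58.3%) on the weak array. Its correlation over probes with the other 7 arrays lay between 0.300 and 0.368. Among those 7 arrays the correlation lay between 0.950 and 0.971 within conception and between 0.949 and 0.975 within non-mated. Across the groups it lay between 0.946 and 0.978, so arrays of 1 group were no more alike than arrays of different groups. The highest across groups were non-mated replicate 2 with conception replicates 1 and 2, at 0.978 and 0.976, all on slide 4. Conception replicate 3 with non-mated replicate 4, of the same scan day and scan range, lay at 0.977. Conception replicates 1 and 2, both on slide 4, lay at 0.966. Whether slide or scan adds to this likeness was not tested. Because of the weak array, results are given for 4 against 3 arrays and set beside those for 4 against 4.

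**Figure D1:**
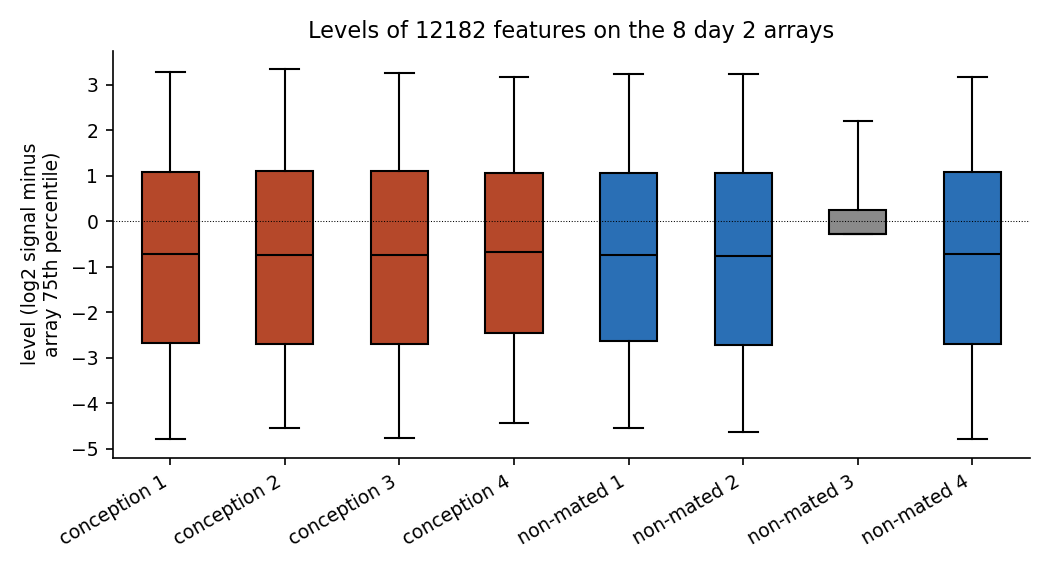
Level (log2 signal minus the array's 75th percentile) of 12182 features on each day 2 array, conception in red and non-mated in blue, with the weak array in grey; boxes span the quartiles with the median as a line, and whiskers reach the 5th and 95th percentiles. On the weak array 58.3% of the features share the level -0.28, and the other 7 distributions lie close together.

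The labelled tissue was checked against marker genes. Of the 7 endometrial epithelium markers on the array, such as the keratin gene KRT18, the junction gene CLDN4 and the Müllerian-duct factor PAX8, all 7 were well above background on the 7 arrays that were not weak. Of 9 stroma markers, 8 were. The median difference of the epithelial markers was 0.02 and that of the stromal markers 0.06. Probes for the progesterone receptor PGR and the oestrogen receptor ESR1 were not analysed here.

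No gene passed the test at day 2. With all 8 arrays, 0 of 12182 features (0%) reached an adjusted p under 0.05 in limma, while 305 (2.5%) were under 0.05 before adjustment, 66 higher (0.542%) and 239 lower (1.96%). Once the weak arrays were left out 0 features (0%) passed, 149 (1.22%) were under 0.05 before adjustment, 63 higher (0.517%) and 86 lower (0.706%), and the smallest adjusted p was 0.999. The median standard error of a difference was 0.39 without the weak arrays and the median absolute difference was 0.21. Each named difference below is therefore a value and not a called change.

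Keeping or leaving out the weak array changed the direction of many differences. Conception minus non-mated had opposite signs in these fits for 4597 features (37.7%). Features above 0 made up 41.3% with all arrays and 51.8% without the weak one, and those at -1 or below 12.7% and 0.895%, beside 1.2% and 1.37% at 1 or above. Among the features held at -0.28 on the weak array, 4644 had a lower mean than that on the other 7 arrays. Of these, 3940 were lower in conception with all arrays and 2031 without the weak one. A further 2462 had a higher mean than -0.28, and of these 372 were lower in conception with all arrays and 1203 without it. Dim genes thus lay lower and bright genes higher in conception when the weak array was kept, with medians of -0.46 and 0.34, against 0.06 and 0.01 without it. For example, the median of the 22 measured oxidative phosphorylation genes, most of them bright, was 0.43 with all arrays and -0.06 without the weak one, and that of 8 endothelial markers, most of them dim, was -0.28 and 0.21.

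**Figure D2:**
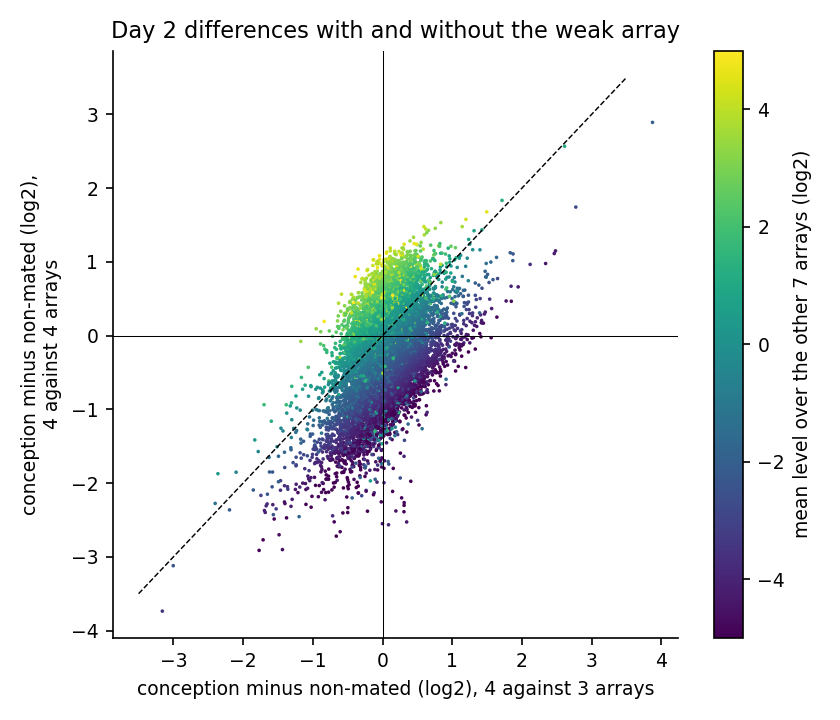
Each of 12182 features by its difference, conception minus non-mated in log2, with 4 against 3 arrays on the horizontal axis and 4 against 4 on the vertical axis; colour gives the mean level over the 7 arrays that are not weak, and the dashed line marks equal values. Dim features (dark) lie below the line and bright features (yellow) above it.

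Without the weak arrays the 4 conception arrays lay wholly above the 3 non-mated arrays for 173 features (1.42%) and wholly below them for 167 (1.37%), 340 in all (2.79%). With all 8 arrays 69 (0.566%) lay wholly above and 102 (0.837%) wholly below, 171 in all (1.4%). The 15 highest and 15 lowest differences among named genes with no overlap and a measured higher group are described next. Because these groups do not overlap, the choice fixes their sign on slide 4 (the only slide that held both groups at day 2), within a scan day and with any 1 of the 7 arrays left out. With the weak array added all 30 had the same sign. Without it slide 4 held 1 non-mated array, replicate 2, and scan day 1 held 1, replicate 4. Slide 4 lies within scan day 2. Of the 15 highest 2 had an unadjusted p under 0.05 in limma, and of the 15 lowest 11 had. Over all features the shares were 0.517% on the higher side and 0.706% on the lower side. The choice of large differences without overlap itself favours small p-values, so these counts lend the genes no support.

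IHH, among the 15 highest, encodes Indian hedgehog, a ligand that progesterone induces in mouse uterine epithelium. IHH had levels of -0.05, -1.32, -1.95 and -0.51 on conception arrays 1 to 4, against -2.64, -2.90 and -1.99 on non-mated arrays 1, 2 and 4. The groups nearly met, at conception replicate 3 and non-mated replicate 4. The difference was 1.55 ± 1.13 (SE), or 2.94-fold, and 1.00 with all arrays. SPDEF, an Ets factor of secretory epithelia, lay at 2.28, 2.67, 1.26 and 1.42 in conception and at -1.15, 0.51 and 1.22 in non-mated endometrium. Its groups nearly met, non-mated replicate 1 lay lowest, and the difference was 1.71 ± 1.30. Although progesterone induces it in mouse, IHH was placed both on the list of oestrogen-dependent genes and on that of decidual and implantation regulators. On the former, OVGP1, which encodes the oestrogen-responsive oviductal glycoprotein and is not one of the 15, came next after IHH. It lay at -0.12, -1.28, -1.79 and -0.81 in conception and at -3.01, -3.32 and -1.14 in non-mated endometrium. There the groups overlapped, with non-mated replicate 4 above 2 conception arrays, and the difference was 1.49 ± 0.75. Within scan day 1 the OVGP1 difference was -0.16 and within scan day 2 it was 2.46.

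COLEC12, a scavenger receptor of the collectin family, was both among the 15 highest and among the 5 smallest p-values on that side. It lay at -1.16, -1.35, -1.78 and -1.71 in conception and at -2.99, -3.79 and -2.48 in non-mated endometrium. All conception arrays lay clear of the 3 non-mated ones, and the weak array, at 0.22, lay above both groups. The difference was 1.58 ± 0.50 (unadjusted p = 0.0053 in limma), or 3.00-fold, and 0.76 with all arrays.

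The highest of the 15 was SLC47A1, which encodes an exporter of organic cations. It lay at 0.08, -1.70, -2.43 and -1.48 in conception and at -3.93, -3.25 and -2.58 in non-mated endometrium. Conception replicate 1 lay well above the other 3, and the difference was 1.87 ± 1.16. LYZ, which encodes lysozyme, lay at 4.12, 5.16, 5.34 and 4.60 in conception and at 3.54, 3.91 and 3.38 in non-mated endometrium. The gap between its groups was small beside the spread within conception, and the difference was 1.20 ± 0.60. The remaining members of the 15 were PALS2 at 1.77, the secreted metalloproteinase gene ADAMTS8 at 1.53, the phosphatase subunit gene PPP2R2C at 1.51, the histone chaperone gene ASF1B at 1.43, PRSS57, a protease gene of neutrophil granules, at 1.35, and the ceramidase gene ACER3 at 1.24. Below these were the membrane serine protease gene TMPRSS2 at 1.20, DHRS2 at 1.17, HAGHL at 1.16 and the sulfite oxidase gene SUOX at 1.13. For 8 of the 15 conception replicate 1 was the highest of its group, and for 8 non-mated replicate 1 was the lowest of its group. PALS2, PRSS57 and SUOX were well above background on 1 of the 3 non-mated arrays, and ACER3 and TMPRSS2 on 2. The non-mated levels of these 5 genes are thus poorly measured on the probes used. A second ACER3 probe gave a difference of 1.14 ± 0.48. The other 10 of the 15 genes were well above background on all 7 arrays. With all arrays the difference of SUOX was 0.03.

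On the lower side IL6, the gene of an inflammatory cytokine, had the lowest difference of all features. Its probe lies at chr3:103512443-103512502 on the minus strand of rheMac2. IL6 lay at -5.32, -3.27, -4.42 and -6.57 in conception and at 0.04, -2.82 and -2.43 in non-mated endometrium, with the weak array at 0.57. Every non-mated array lay above every conception array, and non-mated replicate 1 and the weak array stood highest. The probe was well above background on 2 of the 4 conception arrays and on all 3 of the others. The difference was -3.16 ± 0.98 (unadjusted p = 0.0046 in limma), and with normexp background correction, which lifts dim signals, it was -0.67.

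The probe named NRCAM in the array files, after a cell adhesion molecule, lay at -1.51, -0.61, -1.55 and -1.90 in conception and at 1.26, -0.03 and 0.91 in non-mated endometrium. The groups did not overlap and it was well above background on all 7 arrays. Whether the probe's sequence is that of NRCAM was not checked here. Its difference was -2.10 ± 0.60 (unadjusted p = 0.0024 in limma), with -1.46 under normexp correction.

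PTGS2 encodes the inducible cyclooxygenase that makes prostaglandin precursors. It lay at -0.87, 1.50, 1.19 and 1.66 in conception and at 1.95, 2.33 and 2.24 in non-mated endometrium. Conception replicate 1 stood far below the rest, while the other 3 conception arrays lay just under the non-mated ones. The difference was -1.30 ± 0.74, and with all arrays it was -0.69 and turned to 0.46 under quantile normalization. The tight junction gene CLDN1 lay at -3.12, -1.90, -2.08 and -2.45 in conception and at -0.83, -1.63 and -0.49 in non-mated endometrium. Its groups did not overlap, and the difference was -1.41 ± 0.59. CWH43, whose yeast counterpart remodels the lipid of GPI anchors, lay at -3.29, -3.24, -3.39 and -2.55 in conception and at -1.43, -1.87 and -1.29 in non-mated endometrium. The groups were clearly apart, and the difference was -1.58 ± 0.80.

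The other genes of the 15 lowest were BCAS1 at -1.71, the lysosomal channel gene MCOLN3 at -1.69, the latrophilin gene ADGRL3 at -1.53, the neurotrophin receptor gene NTRK3 at -1.49, the calpain gene CAPN12 at -1.31 and the phospholipid scramblase gene PLSCR1 at -1.30. Then came the lymphocyte surface gene CD52 at -1.23, the HMG-box factor gene TOX at -1.21, the glucosamine-6-phosphate deaminase gene GNPDA1 at -1.20 and the organic anion transporter gene SLC22A6 at -1.07. A second NTRK3 probe gave -1.30 ± 0.92. BCAS1 was well above background on 1 of the 4 conception arrays, and MCOLN3, PLSCR1 and TOX on 2. Under normexp correction BCAS1, MCOLN3, PLSCR1, TOX and SLC22A6 turned positive, at 0.74, 0.23, 0.50, 0.59 and 0.52.

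**Figure D3:**
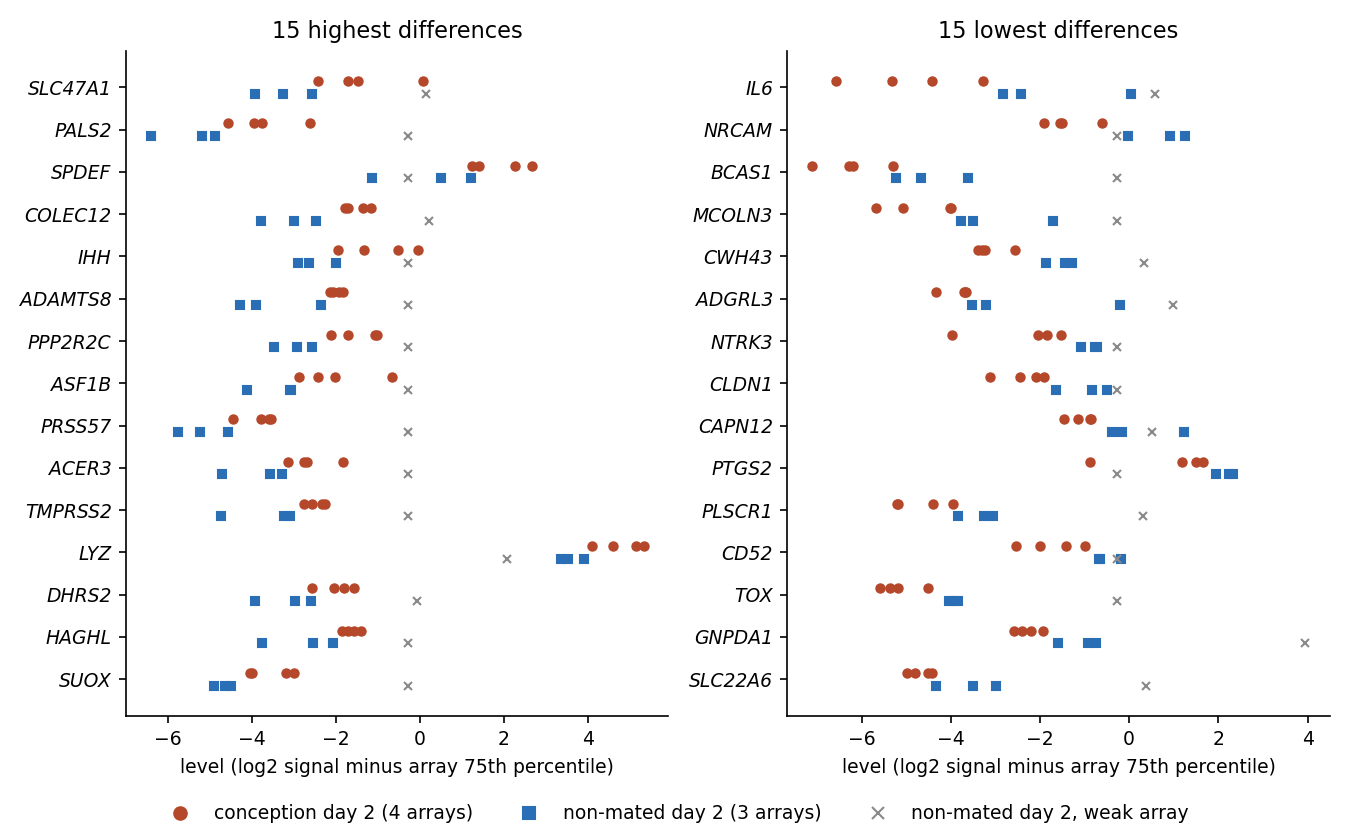
Level on each day 2 array (log2 signal minus the array's 75th percentile) for the 15 highest and 15 lowest differences among named genes whose groups do not overlap without the weak array. Red circles are the 4 conception arrays, blue squares the 3 non-mated arrays, and grey crosses the weak array, which lies on either side of the others and at -0.28 for many genes.

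Among named genes on the higher side the smallest p belonged to PMVK. It encodes phosphomevalonate kinase of the sterol pathway, and its probe lies at chr1:133464588-133464647 on the minus strand of rheMac2. PMVK lay at -0.13, 0.19, 0.26 and 0.47 in conception and at -1.55, -0.65 and -0.42 in non-mated endometrium. The groups did not overlap, the conception arrays lay close together, and non-mated replicate 1 was the lowest. The difference was 1.07 ± 0.27 (unadjusted p = 0.000744 in limma), or 2.10-fold, and ran from 0.73 to 1.30 over the alternatives run. Besides COLEC12, the next were TNFAIP8L2 at 0.91 ± 0.28, METRN at 1.07 ± 0.36 and the Rab regulator gene TBC1D10A at 1.18 ± 0.39. For TBC1D10A the groups overlapped. On the lower side the cadherin gene CDH13, at -1.78 ± 0.61, joined IL6, the probe named NRCAM, MCOLN3 and PLSCR1, and its groups overlapped as well.

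The smallest p of all features came from a probe with no gene name in the sources used here, A_01_P016107, singled out after its values were seen. Its sequence is shown because the position and the letters are its only identity, and it lies at chr3:4355782-4355841 on the plus strand of rheMac2.
A_01_P016107: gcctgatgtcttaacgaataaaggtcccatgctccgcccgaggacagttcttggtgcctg
Its levels were -2.51, -0.71, -1.56 and -1.74 in conception and -3.93, -4.64 and -4.65 in non-mated endometrium. The groups lay well apart, and the weak array, at -0.28, stood above both. The probe was well above background on all 4 conception arrays and on 2 of the 3 others. The difference was 2.77 ± 0.63 (unadjusted p = 0.000307 in limma), or 6.83-fold, and 1.74 with all arrays. It was 3.03 on slide 4, 2.99 within scan day 1 and 2.67 within scan day 2. When limma weighted each array by its quality, this probe was the 1 feature that passed, with an adjusted p of 0.0301. Its difference was -1.04 at day 4 and -1.11 at day 6.

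Gene lists were described by how many measured members lay higher or lower without the weak arrays, beside 51.8% of all features above 0 and a median of 0.02. Of 417 measured genes on 36 lists, 0 passed the test. Fewer cells of a type and less RNA per cell cannot be told apart in whole endometrium. The plot of list medians gives each list with the range over arrays left out in turn.

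**Figure D4:**
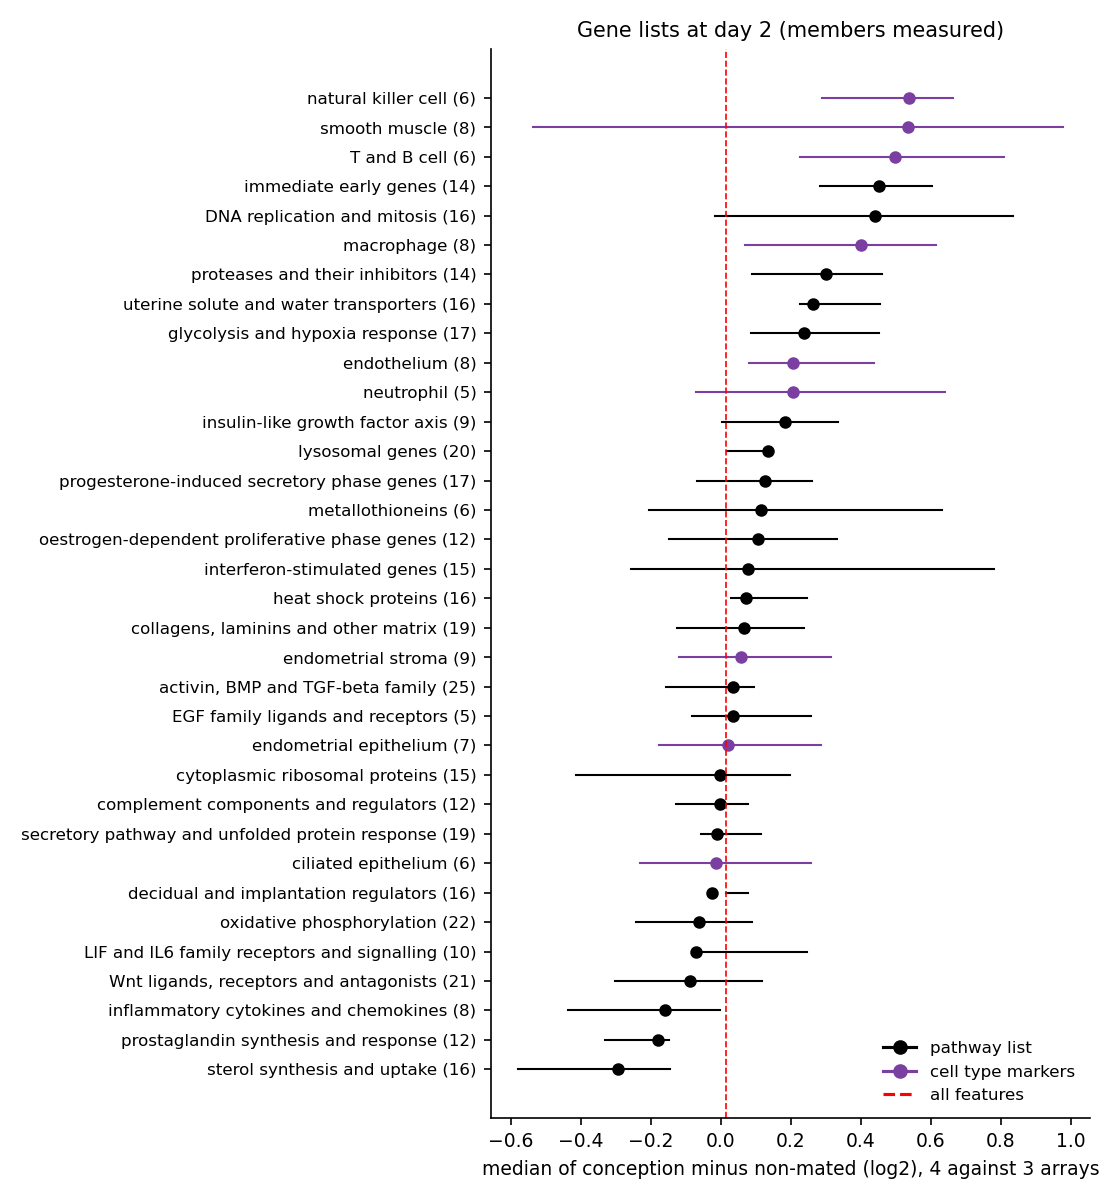
Median of conception minus non-mated (log2, 4 against 3 arrays) for the 34 lists with at least 5 measured genes, with the number measured in brackets; black marks pathways and purple marks cell types. Points are medians over the genes, lines span the medians when each of the 7 arrays is left out in turn, and the dashed line is the median of all features. The lines of smooth muscle and of DNA replication and mitosis, among others, reach below 0, and that of sterol synthesis and uptake stays below 0.

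All 16 measured genes of DNA replication and mitosis lay higher in conception, with a median of 0.44, and all 16 were highest on conception replicate 1. Their median level was 1.16, -0.68, -1.86 and -0.83 on conception arrays 1 to 4, against -1.19, -0.23 and -1.42 on the non-mated arrays. Conception replicate 3 had the lowest of these medians and replicate 1 the highest. Without conception replicate 1, 7 of the 16 lay higher and the median was -0.02, and over the other arrays left out it ran from 0.29 to 0.83. The mitotic kinase gene AURKA lay at 0.66, -1.48, -2.31 and -1.04 in conception and at -2.48, -0.96 and -2.03 in non-mated endometrium. It was the list's highest difference at 0.78 ± 0.88, followed by the cyclin gene CCNB1 at 0.71 and the replication licensing gene MCM3 at 0.68, and their groups overlapped. ASF1B, the histone chaperone among the 15 highest, was likewise highest on conception replicate 1, at -0.66 against -2.02 to -2.88 on the others.

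Smooth muscle markers were very high on 1 conception array. Of 8 measured, 7 lay higher in conception with a median of 0.53, and 7 of the 8 were highest on conception replicate 2. The contractile gene TAGLN lay at 1.70, 6.39, 1.69 and 1.82 in conception and at 1.47, 1.80 and 3.37 in non-mated endometrium. MYH11, the smooth muscle myosin gene, lay at 0.49, 5.74, 0.94 and 0.93 in conception and at 0.31, 0.35 and 3.53 in non-mated endometrium. Conception replicate 2 stood above every other array, and non-mated replicate 4 came next. The median level of the 8 markers was 5.66 on conception replicate 2 and 0.44 to 0.77 on the other conception arrays, against 2.46 on non-mated replicate 4 and 0.55 to 0.88 on the other 2. Without conception replicate 2, 2 of 8 lay higher and the median was -0.54, and over the other arrays left out it ran from 0.15, without non-mated replicate 1, to 0.98. Within scan day 1, whose only non-mated array here was replicate 4, the median was -1.46, and within scan day 2 it was 1.97. The part of this array in the 15 highest and 15 lowest was not tested.

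**Figure D5:**
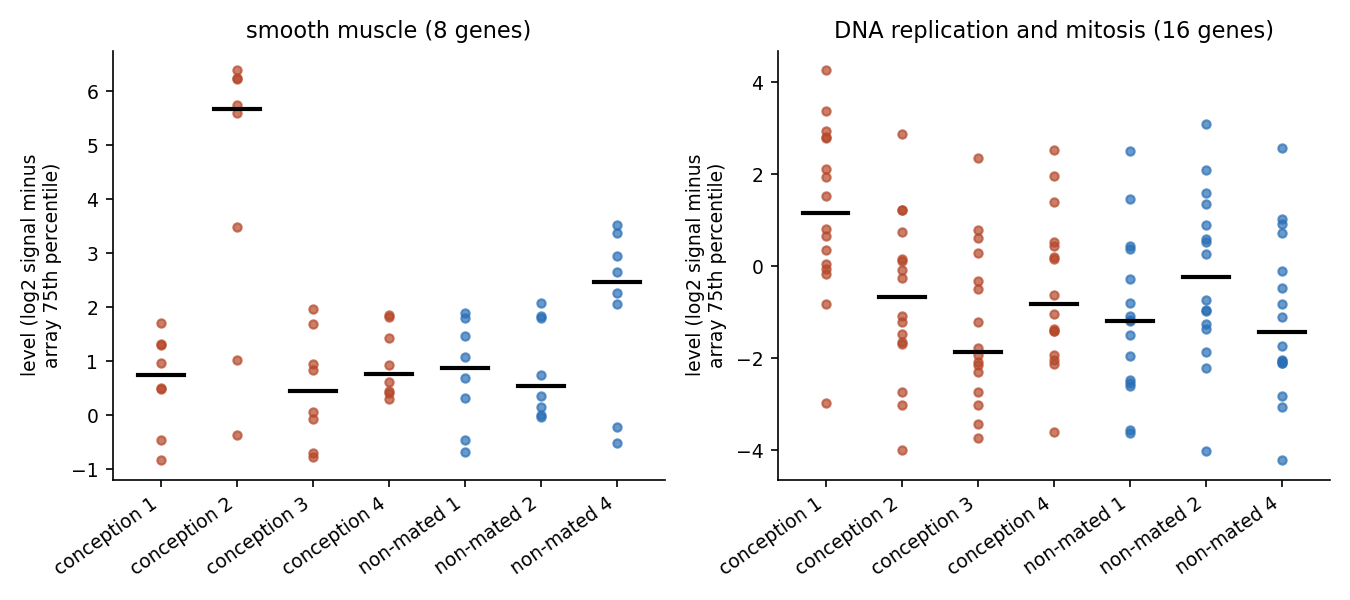
Levels (log2 signal minus the array's 75th percentile) of the 8 smooth muscle markers and the 16 genes of DNA replication and mitosis on the 4 conception arrays (red) and the 3 non-mated arrays (blue) at day 2, without the weak array; each point is a gene and each bar the median. Conception replicate 2 stands apart on the left and conception replicate 1 is highest on the right.

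Immediate early genes are induced within minutes of a stimulus, and many of them encode transcription factors. Of 14 measured 12 lay higher, with a median of 0.45 and a range of 0.28, without conception replicate 1, to 0.60 over arrays left out. Without non-mated replicate 1 it was 0.29. FOS lay at -1.62, -0.80, -1.001 and -1.52 in conception and at -2.18, -2.08 and -1.80 in non-mated endometrium. Its groups did not overlap, and the difference was 0.79 ± 0.65. JUNB was at 1.12 ± 0.50 and ATF3 at 1.09 ± 0.57, and their groups overlapped. JUNB was dim in conception, at -4.33 to -3.59, and non-mated replicate 4 lay above all 4 of these arrays. With all arrays the JUNB difference was -0.12. Within scan day 1 the median of the list was 0.10 and within scan day 2 it was 0.69. It was 0.43 over arrays with a single scan range. Over arrays with the extended scan range, whose only conception array was replicate 3, it turned to -0.16.

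Of 16 genes of sterol synthesis and uptake 13 lay lower in conception, with a median of -0.29 and a range over arrays left out of -0.58, without non-mated replicate 2, to -0.15, without non-mated replicate 1. Without conception replicates 1 and 4 and non-mated replicate 4, each in turn, it was -0.19, -0.18 and -0.18. IDI1, the isomerase of isopentenyl diphosphate, was lowest at -0.93 ± 0.56, followed by the sterol sensor gene INSIG1 at -0.61. PMVK, of the same pathway, lay the other way. The median was -0.57 within scan day 1 and -0.06 within scan day 2, and 0.23 on slide 4, whose 3 arrays belong to scan day 2. With all arrays it was 0.15. Of 12 prostaglandin genes 8 lay lower with a median of -0.18, led by PTGS2, by its constitutive counterpart PTGS1 at -1.01 ± 1.00 and by the thromboxane synthase gene TBXAS1 at -0.80 ± 0.69. The prostaglandin median was -0.33 without non-mated replicate 4 and -0.32 without conception replicate 2. Among 17 genes of glycolysis and hypoxia response 15 lay higher, with a median of 0.24, led by PKM at 1.06 and HK2 at 0.76, and 11 did without non-mated replicate 1, when the median was 0.08. Without non-mated replicate 4 the glycolysis median was 0.45.

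Markers of 3 immune cell types lay mostly higher without the weak array. All 6 natural killer cell markers had differences above 0, with a median of 0.54. Granzyme A (GZMA) lay at 3.14, 2.48, 2.06 and 2.29 in conception and at -0.05, 2.71 and 2.36 in non-mated endometrium. Non-mated replicate 1 stood low and the other 2 non-mated arrays lay among the conception arrays. The perforin gene PRF1 was at 0.86 ± 0.66, granzyme B (GZMB) at 0.85 ± 0.70 and GZMA at 0.82 ± 0.79. Without non-mated replicate 1 the list's median was 0.29, and it was 0.12 within scan day 1 and 0.83 within scan day 2. Of 8 macrophage markers 7 lay higher with a median of 0.40, led by the CSF-1 receptor gene CSF1R at 1.08 ± 0.55, and the median was 0.07 without conception replicate 1 and 0.61 without conception replicate 3. The macrophage median was -0.17 within scan day 1, whose only non-mated array here was replicate 4. It was 0.98 within scan day 2 and 0.92 on slide 4, which is part of scan day 2. Of 6 T and B cell markers 5 lay higher, with a median of 0.50, which was 0.23 without conception replicate 3 and 0.81 without conception replicate 4. Keeping the weak array gave 0.10 for the natural killer list, -0.02 for the macrophage list and -0.33 for T and B cells.

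The median of interferon-stimulated genes changed sign between batches, which held few non-mated arrays. Of 15 measured 11 lay higher with a median of 0.08, which was 1.11 on slide 4, -0.92 within scan day 1 and 1.09 within scan day 2. The list's median level was 1.06 on non-mated replicate 4, the only non-mated array of scan day 1 here. It was -0.98 on non-mated replicate 2, the only one of slide 4. Without replicate 4 the median difference was 0.78, and without replicate 2 it was -0.26. BST2, which encodes tetherin, lay at 3.52, 2.81, 2.38 and 3.46 in conception and at 1.36, 2.33 and 2.31 in non-mated endometrium. The groups did not overlap but nearly met, and the difference was 1.05 ± 0.41 (unadjusted p = 0.021 in limma). IFI6 was at 1.14 ± 0.71 and ISG15 at 0.60 ± 0.70, with overlapping groups.

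Most genes known from progesterone-driven secretion and from implantation had overlapping groups, and so did most of all features. The exceptions on these lists were 2 of 16 decidual and implantation regulators, IHH at 1.55 and FKBP4 at 0.50. They lay wholly higher in conception, beside 1.42% of all features. None of 17 progesterone-induced genes lay wholly to one side, which is near the share over all features (2.79%). PAEP, which encodes glycodelin, lay at -2.52, -1.23, -3.83 and -2.50 in conception and at -2.74, -1.52 and -0.19 in non-mated endometrium. SPP1, the osteopontin gene, lay at -1.33, -0.71, 1.38 and -3.08 in conception and at -0.84, -3.38 and -1.80 in non-mated endometrium. LIF, the gene of a cytokine that mice need for implantation, lay at -3.85, -4.57, -4.99 and -3.17 in conception and at -4.00, -2.70 and -3.55 in non-mated endometrium. In all 3 genes the groups overlapped. Of the 17 progesterone-induced genes 10 lay higher, with a median of 0.13 that was -0.07 without non-mated replicate 2 and -0.04 without conception replicate 3. Of the 16 decidual and implantation regulators 7 lay higher, with a median of -0.03 that lay between 0.02 and 0.08 with any 1 array left out. FKBP4, a co-chaperone of the progesterone receptor, lay at 1.15, 0.40, 0.69 and 0.75 in conception and at 0.27, 0.23 and 0.26 in non-mated endometrium. Conception replicate 1 stood highest, and the difference was 0.50 ± 0.30.

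Housekeeping processes lay near 0. The median was -0.06 for 22 oxidative phosphorylation genes, -0.002 for 15 ribosomal protein genes and -0.01 for 19 genes of protein secretion and its stress response. Ribosomal protein genes split along single arrays, since 13 of 15 were lowest on non-mated replicate 4 and 11 of 15 highest on non-mated replicate 1, and the median ran from -0.41 to 0.20 over arrays left out.

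The same genes were then read on the later days, which share no array with day 2 but share slides with it. Slides 7 and 8 held only conception arrays and slides 5 and 6 only non-mated arrays, each of days 2, 4 and 6. Whether a sign shared between days follows the slide was not tested. The 8 non-mated arrays used as days 4 and 6 carry day 2 in their titles, against their other labels, which were followed here, so their day is in doubt. Of the 15 highest, 11 had the same sign at day 4 and 11 at day 6, and of the 15 lowest 8 and 10 did, beside 48.6% and 48.0% of all features. Without the weak arrays day 4 had 2 non-mated arrays. SLC47A1 was 1.69 at day 4 and 2.33 at day 6, PPP2R2C 1.80 and 1.71, the probe named NRCAM -1.35 and -1.47, and NTRK3 -1.88 and -1.63. IL6 was 0.72 at day 4 and -0.52 at day 6, and COLEC12 0.72 and -0.11. The difference between the day 2 effect and the mean of the later effects was itself tested. With all 24 arrays 0 of 12182 features (0%) passed, and 155 were under 0.05 before adjustment. Leaving out the weak arrays gave 0 (0%) past the threshold and 419 before adjustment. The smallest adjusted p was then 0.512, for A_01_P016107 at 3.85, so no named gene was shown to differ at day 2 from the later days.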

How the data were processed

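Each deposited scanner file holds a spot intensity on a linear scale, background-corrected by Agilent Feature Extraction (version 9.5.3.1 per the file headers, 10.7.3.1 per the submitters' processing notes). The deposited value table is on the log2 scale, and how the authors centred it is not given in the sources used here; it served as an alternative, and its medians were -0.354, -0.307, -0.406 and -0.252 on conception arrays 1 to 4 and -0.238, -0.280, 2.85 and -0.335 on non-mated arrays 1 to 4. Control spots and outlier spots were dropped, and the spots left of a probe were averaged. Levels were log2 processed signal minus the array's 75th percentile. Probes entered the fit when flagged well above background on 3 or more arrays of a group, and the brightest probe stood for a gene. Symbols were found for 12388 of 20217 probes, from the files' names and from RefSeq tables used for names only. Positions are those of rheMac2 in the file headers.

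Means of the 6 groups were fitted over all 24 arrays with limma 3.58.1 (lmFit, eBayes) in R 4.3.3. Residual degrees of freedom were 18, or 15 without the 3 arrays that had under 50% of probes well above background, 1 of them at day 2. Adjustment was by Benjamini-Hochberg over 12182 features, two-sided, with a threshold of 0.05. The arrays of days 4 and 6 thus entered the variance behind every day 2 error and p, and served for the test of whether day 2 differs. A fit on day 2 arrays alone had 6, or 5, residual degrees of freedom. Genes named are the 15 highest and 15 lowest differences without overlap, the 5 smallest p in each direction, 3 members of each list and 6 fixed genes. The members and lists were chosen with earlier results of these data known. Alternatives covered background correction, scaling, filters, probe choice, slide, scan range, replicate number, array weights and arrays left out. The fit was tested on simulated data. The slides, numbered here from the headers, were 4, 4, 7 and 8 for conception and 3, 4, 5 and 6 for non-mated arrays 1 to 4. Conception arrays 1 and 2 and non-mated arrays 1 and 2 were scanned on scan day 2, and the others on scan day 1. A single scan range was used for 3 conception arrays and 1 non-mated array. The number of arrays limits the precision. Tables and plots were made in Python 3.11.15 (pandas 2.3.3, numpy 2.4.6, matplotlib 3.10.9).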

Additional observations from a re-analysis of the deposited data

Results flagged for a closer look

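A value is listed here where the highest or lowest of the 4 arrays of a group stood far from the other 3 for a named gene or for the array's share of probes above background and spread of levels. Of 272 groups examined 33 met this, all for named genes, and chance gives about 1 in 20. In 19 of the 33 the array was non-mated replicate 3, the weak array. On it, in 12 of the 19, SUOX, PTGS2, TOX, LIFR, IGFBP5, SMAD6, SLC1A5, PDGFRA, CD8A, ELANE, HDC and the probe A_01_P016107 all read -0.283938, its lowest value. It also read 3.94 for GNPDA1 against -1.60 to -0.73 on the other non-mated arrays, 2.02 for TNFAIP8L2 against -4.42 to -4.10, 3.18 for NRG2 against -3.88 to -3.40 and 3.52 for IGFBP4 against 1.64 to 1.91. The other readings on it were 2.31 for KRT18 against 4.76 to 4.91, 0.23 for TPPP3 against 1.27 to 1.35 and 0.69 for FKBP4 against 0.23 to 0.27.

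Of the other 14, 11 fell on single conception arrays and 3 on non-mated arrays that were not weak. Conception replicate 2 was highest for the smooth muscle genes TAGLN, at 6.39 against 1.69 to 1.82, and MYH11, at 5.74 against 0.49 to 0.94, and lowest for the stromal receptor gene PDGFRA, at 0.76 against 1.34 to 1.40. Replicate 1 was highest for granzyme B (GZMB), at 3.17 against 1.59 to 1.78, and lowest for TGFBR3, at 0.34 against 0.95 to 0.97, and for the follistatin-like gene FSTL3, at 2.34 against 4.19 to 4.40. Replicate 3 was low for RPL13, at -2.42 against 1.78 to 2.43, and for the endothelial gene ENG, at -4.44 against -2.07 to -1.78, and high for JUNB, at -3.59 against -4.33 to -4.21. Replicate 4 was high for CWH43, at -2.55 against -3.39 to -3.24, and low for ADGRL3, at -4.33 against -3.71 to -3.65.

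Non-mated replicate 4 was high for MYH11, at 3.53 against -0.15 to 0.35, and for the complement gene C1QA, at 0.96 against -0.28 to -0.18. Non-mated replicate 1 was high for the metallothionein gene MT1X, at 1.72 against -0.18 to 0.08.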

How the results depend on the processing

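The count past the threshold at day 2 stayed at 0 under every alternative except array weights, with and without the weak arrays. Array weights gave 1 feature with all arrays, 1 without the weak arrays, and 4 for the contrast of day 2 with later days. The weight was 4.68 for non-mated replicate 2 and 0.0603 for the weak array. Leaving out each day 2 array in turn gave 0 to 0. No pairing by replicate number was seen with all arrays. Same-numbered arrays had deviations correlated at -0.12 to -0.008, and arrays of different numbers at -0.24 to 0.30. Without the weak array these ran from -0.12 to -0.02 and from -0.47 to 0.51. Conception replicate 1 with non-mated replicate 2, both on slide 4, gave 0.51. Conception replicate 3 with non-mated replicate 4, of the same scan day and scan range, gave 0.35. Conception replicate 2 with non-mated replicate 2, also on slide 4, gave -0.12. Whether these values follow slide or scan was not tested. So few pairs cannot exclude a pairing. With replicate number as a block the count was 0 in all 3 cases (318 unadjusted with all arrays, 213 without the weak ones). A fit on day 2 arrays alone had 79 features under 0.05 before adjustment with all arrays and 212 without the weak one, against 305 and 149. Over the other alternatives these counts ran from 12 with normexp to 694 with array weights for all arrays, and from 133 with median scaling to 1087 with array weights without the weak ones. Leaving out an array gave 55 to 1069 and 71 to 400, and for the contrast with later days they ran from 48 with normexp to 1337 with array weights, against 155. The median of all features with all arrays, -0.152, moved to 0.145 with normexp correction, 0.489 with quantile normalization and 0.490 with median scaling, and without the weak arrays normexp moved it to 0.210. None of the differences is called, so a change of sign is given as a count. Of the 30 highest and lowest, 5 changed sign with normexp without the weak arrays and 0 with quantile normalization, median scaling or a slide, scan range or replicate block. Leaving out 1 of those 7 arrays, or weighting them, could not change these signs, since the genes were chosen for no overlap. With all arrays 0 to 4 changed. Without the weak arrays 10 of the 30 differences were classed as moved with slide as a block, though with unchanged sign, and 9 with normexp. Of 36 list medians 12 changed sign with normexp, 9 with array weights, 8 with scan range and 6 with slide as a block, and 6 to 9 with an array left out. Differences of dim genes are limited by background.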
